A study of Mus musculus with 12 samples.

Results

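Ribosome biogenesis is the production of ribosomal RNA in the nucleolus and its assembly with proteins into the small and large ribosomal subunits. The 50 genes described here encode its machinery. They were taken as a list of gene symbols by function, with no threshold on a measured value. All 50 symbols matched 1 Ensembl gene ID each among the 48672 IDs of the count files. All 50 also passed the filter on low counts, which left 15704 genes in the tests, and none was at 0 counts in any library.

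RNA polymerase I copies the ribosomal DNA into a long precursor RNA. Small nucleolar ribonucleoproteins (snoRNPs) then guide the chemical modification of that precursor, and assembly factors fold and cut it while ribosomal proteins join. In T cells the pathway is known to be raised when cells grow and divide, and the transcription factor MYC is a known activator of many of its genes. By their roles the 50 genes were placed in 6 groups: 6 genes of RNA polymerase I transcription, 3 core proteins of box C/D snoRNPs, 4 core proteins of box H/ACA snoRNPs, 7 nucleolar chaperones and organisers, 16 factors of small subunit assembly and 14 of large subunit assembly.

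The series compared iNKT cells (invariant natural killer T cells, which recognise lipid antigens through a nearly fixed receptor) between wild-type (WT) and Bcl6KO mice at stage 0 (ST0) and stage 1 (ST1) of their development in the thymus. Tetramer-binding cells positive for TCRb, the receptor's beta chain, were taken as CD24+CD44- for stage 0 and as CD24-CD44- for stage 1. All mice were labelled C57Bl/6J, untreated and 4 to 5 weeks old, and thymi of 4 to 7 mice were pooled. The Bcl6KO mice are written as CDCre;Bcl6F/F, floxed alleles of the transcriptional repressor Bcl6 with a Cre transgene whose promoter the labels do not spell out further. The WT mice have no allele or transgene named. Each of the 4 groups had 3 libraries, and since the labels leave it unsaid whether each is a pool of its own, the p-values rest on a spread between libraries that may partly be technical. In sorted bulk cells, fewer cells of a type and less RNA per cell cannot be told apart.

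Total counts per library ran from 4129919 to 8038717 counts. The 3 Bcl6KO ST0 libraries stood apart. They had 14860 to 17734 genes with a count, against 18417 to 22028 in the other 9. The single gene Sp100 took 10.8% to 23.9% of their counts, against 0.0283% to 5.03% elsewhere. Cd24a, the sort marker, fell from stage 0 to stage 1 in both genotypes, with a log2 fold change of -4.83 in WT and -7.49 in Bcl6KO (quasi-likelihood test of edgeR, Benjamini-Hochberg adjusted p = 0.0155 and 0.00633). In CPM (counts scaled to a common library size), Bcl6 stood at 215 to 371 in WT ST0, 508 to 654 in Bcl6KO ST0, 4.13 to 8.72 in WT ST1 and 14.6 to 55.8 in Bcl6KO ST1. This count covers the whole gene and was not lower in the libraries labelled Bcl6KO, so it does not check the deletion. Of 9 markers of double-positive thymocytes, the precursors of these cells, 3 fell with stage in WT and 4 in Bcl6KO by the same test. Of all 15704 genes tested, 57 and 40 fell. Between genotypes at stage 1 none of the 9 passed. At an unadjusted p under 0.05, 3 were higher in Bcl6KO ST1 (1.45% of all genes) and 1 lower (1.13%). The summed level of the 9 was 544 to 1691 CPM in WT ST0, 203 to 588 in WT ST1, 1374 to 1434 in Bcl6KO ST0 and 444 to 968 in Bcl6KO ST1. Pecam1, listed here with the markers of thymic epithelium and stroma, stood at 1433 CPM in Bcl6KO ST0 library 2. It stood at 86.2 to 218 CPM in the other 11, so it was present in every sorted library. With it, the 8 markers on that list summed to 113 to 181 CPM in WT ST0 and 100 to 120 in WT ST1. The sums were 139 to 1480 CPM in Bcl6KO ST0 and 112 to 173 in Bcl6KO ST1. Of the 1480 CPM in Bcl6KO ST0 library 2, Pecam1 alone made up 1433, so that sum rests on 1 gene. Krt8, Krt5 and Pdgfra were at 0 in all 12. Only 2 of the 8 were tested, and none passed. Both were lower at stage 1 in Bcl6KO at an unadjusted p under 0.05 (log2 fold change -2.16 and -7.03), against 6.43% of all genes. Of 3 other foreign cell lists, B cell markers summed to 30.4 to 103 CPM in WT ST0 and 85.9 to 161 in WT ST1. They summed to 33.7 to 180.0 CPM in Bcl6KO ST0 and 36.8 to 106 in Bcl6KO ST1. Myeloid markers summed to 13.7 to 43.9, 16.1 to 64.7, 15.5 to 87.6 and 42.1 to 124 CPM in the same order. None of the 6 B cell and 5 myeloid markers tested passed. Between the Bcl6KO stages 2 of the 6 were lower at an unadjusted p under 0.05 (6.43% of all genes) and 0 higher. Between genotypes at stage 1, 2 of the 5 were higher without overlap (5.87%) and 0 lower. Summed erythroid markers stood at 23.2, 10.2 and 0 CPM in the Bcl6KO ST0 libraries and at 0.612 to 7.12 CPM in the other 9. Of these, the haemoglobin genes Hba-a1 and Hba-a2 were at 0 in all libraries. The part of these other cells in the results below was not tested.

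The promoters of 4 of the genes are shown first, because the results below turn on these genes: Rrn3, Utp18 and Rrp9 had the lowest p of the 50 genes for lower counts in Bcl6KO ST0 than in WT ST0, and Polr1a was the gene with the lowest p among those whose Bcl6KO ST0 libraries all lay above the WT ST0 libraries. Each window is the RefSeq promoter table's stretch from 250 bases before to 50 bases after the gene start on GRCm38.p6, the mm10 assembly, written 5′ to 3′ on the gene's strand. The windows are chr16:13780449-13780748 on the plus strand for Rrn3, chr11:93885717-93886016 on the minus strand for Utp18, chr9:106477059-106477358 on the plus strand for Rrp9 and chr6:71908803-71909102 on the plus strand for Polr1a. The RefSeq start of Rrp9 lies inside the locus that GENCODE gives for the gene, downstream of the GENCODE start, so this window is not upstream of the locus printed below. Capitals mark CACGTG, the E-box bound by MYC with MAX, and TTCNNNGAA, a spaced palindrome of the kind that BCL6 and STAT factors bind.
Rrn3: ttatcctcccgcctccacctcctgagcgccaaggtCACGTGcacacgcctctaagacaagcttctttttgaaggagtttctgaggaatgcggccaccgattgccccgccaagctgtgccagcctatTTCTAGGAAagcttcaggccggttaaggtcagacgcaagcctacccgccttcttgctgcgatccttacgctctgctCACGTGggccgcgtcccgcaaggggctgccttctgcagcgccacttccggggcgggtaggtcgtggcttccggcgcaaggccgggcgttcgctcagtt
Utp18: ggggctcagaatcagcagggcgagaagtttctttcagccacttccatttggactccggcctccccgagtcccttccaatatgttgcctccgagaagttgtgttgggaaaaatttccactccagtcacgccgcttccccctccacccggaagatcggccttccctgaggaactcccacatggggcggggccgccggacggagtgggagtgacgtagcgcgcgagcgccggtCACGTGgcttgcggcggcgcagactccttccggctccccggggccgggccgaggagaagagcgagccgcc
Rrp9: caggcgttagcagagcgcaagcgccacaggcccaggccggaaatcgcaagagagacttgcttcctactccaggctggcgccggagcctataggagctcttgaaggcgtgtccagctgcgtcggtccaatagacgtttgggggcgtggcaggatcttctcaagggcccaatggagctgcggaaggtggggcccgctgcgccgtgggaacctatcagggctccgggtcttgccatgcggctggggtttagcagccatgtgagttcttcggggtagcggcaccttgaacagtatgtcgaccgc
Polr1a: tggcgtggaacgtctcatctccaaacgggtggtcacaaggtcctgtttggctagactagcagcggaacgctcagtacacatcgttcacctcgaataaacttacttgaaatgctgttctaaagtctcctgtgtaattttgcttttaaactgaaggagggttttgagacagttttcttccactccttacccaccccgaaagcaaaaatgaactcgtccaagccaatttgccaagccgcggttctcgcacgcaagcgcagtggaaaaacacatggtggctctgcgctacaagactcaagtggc
The Rrn3 window held 2 E-boxes, 215 and 48 bases before the gene start, and 1 palindrome 124 bases before it. The Utp18 window held 1 E-box 20 bases before the start, and the windows of Rrp9 and Polr1a held neither motif.

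Of the 50 genes, 44 had at least 1 window in the RefSeq table, 53 windows in all. Tcof1, Rrp12, Npm1, Bop1, Rrs1 and Fbl had none. Both strands were searched, and each motif was counted whether or not it overlapped another. CACGTG was found in 10 of the 44 genes (22.7%), against 8.09% of all 27025 genes in the table. The 10 were Rrn3, Utp18, Utp4, Utp20, Ltv1, Imp4, Wdr43, Nop2, Pes1 and Mybbp1a, and in 6 of them, Utp4, Ltv1, Utp20, Pes1, Mybbp1a and Wdr43, the match lay 2 to 40 bases after the start. TTCNNNGAA was found in 5 genes (11.4%, against 9.55% of all), namely Rrn3, Polr1b, Nop58, Nob1 and Utp15. CCGGAAG, the core motif of ETS factors, was in 16 genes (36.4%, against 9.93%). TATAAA, the TATA box, was in 3 (6.82%, against 15.7%). The windows of these genes had a median GC content of 58.3%, against 52.7% over all windows. A match describes letters in the window and is not a measured binding site. The 10 genes with CACGTG and the 34 with a window but no match had median log2 fold changes of -0.19 and -0.13 for Bcl6KO against WT at stage 0, 0.13 and -0.10 at stage 1, -0.04 and 0.13 for stage 1 against stage 0 in WT, and 0.17 and -0.00 in Bcl6KO.

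The genes lie on 19 chromosomes and mostly far from each other. Next neighbours among them were under 1 Mb apart in 3 cases: Nop58 and Wdr12 on chromosome 1 (350.7 kb), and Utp4 with Nip7 (133.8 kb) and Nip7 with Nob1 (351.6 kb) on chromosome 8. In the annotation 7 of the genes carry 21 snoRNA genes on their own strand, 5 in Nop56, 4 in Nop58, 3 each in Ncl, Gnl3 and Wdr43, 2 in Ppan and 1 in Dkc1. Another annotated gene covered over 5% of the exonic bases of 4 genes: Noc2l (20.9%), Bysl (9.37%), Nop56 (8.12%) and Nop14 (5.27%). Since the strand setting of the counting is not given in the sources used here, reads of the overlapping genes cannot be told apart from theirs. Mrto4 has 2 named pseudogenes in the annotation, so its counts are uncertain too.

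Levels between genes were compared per kilobase of exonic length, as the mean CPM per kilobase over 12 libraries. They spanned from 3.55 to 160 with a median of 11.1. Npm1 (160 CPM per kilobase), the nucleolar histone chaperone nucleophosmin, and Nop56 (158), a core protein of box C/D snoRNPs, stood highest. Ncl (76.4), the RNA-binding chaperone nucleolin, and Gar1 (52.8), a core protein of box H/ACA snoRNPs, followed. The lowest were Rrp9 (3.55), Rrp12 (3.94), Polr1e (4.20), Nob1 (5.10) and Utp18 (5.22). Within role groups the highest per kilobase were Ubtf (15.9) for RNA polymerase I transcription, Nop56, Gar1, Npm1, Wdr43 (20.0) for the small subunit and Rrp1 (45.5) for the large subunit. Npm1 and Nop56 differed by less than the spread of either over libraries, 291 to 566 CPM for Npm1 and 318 to 924 CPM for Nop56. On the scale not divided by length, mean CPM ran from 10.4 to 779 with a median of 51.2. Of the 50 genes, 24 were under 50 CPM and 12 over 100 CPM, and Ncl, Nop56 and Npm1 together made up 39.5% of the summed CPM.

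Spread between libraries of a group was wide, and widest in Bcl6KO ST0. The median coefficient of variation (SD over mean of 3 libraries) was 35.3% in WT ST0, 22.1% in WT ST1, 64.9% in Bcl6KO ST0 and 36.0% in Bcl6KO ST1. Other genes within the range that holds most of the 50 genes' mean levels (12.1 to 315 CPM, 8679 genes) had medians of 44.0%, 27.5%, 67.4% and 37.4%. Averaged over the groups it was lowest for Ddx21 (16.5%), an RNA helicase of the nucleolus, Npm1 (17.8%), Ncl (18.0%) and Polr1a (18.7%), the largest subunit of RNA polymerase I. It was highest for Rrp12 (87.6%), Imp3 (73.5%), Polr1e (72.5%), Nop16 (70.7%) and Mrto4 (70.6%). Rrp12, a nuclear export factor of pre-ribosomes, stood at 0.596, 2.64 and 79.5 CPM in the 3 Bcl6KO ST0 libraries, where the first value rests on 3 counts and the third on 406. Bcl6KO ST0 library 2 held the lowest value of all 12 libraries for 12 of the 50 genes. Bcl6KO ST0 had the highest group mean for 17 genes and the lowest for 18.

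**Figure D1:**
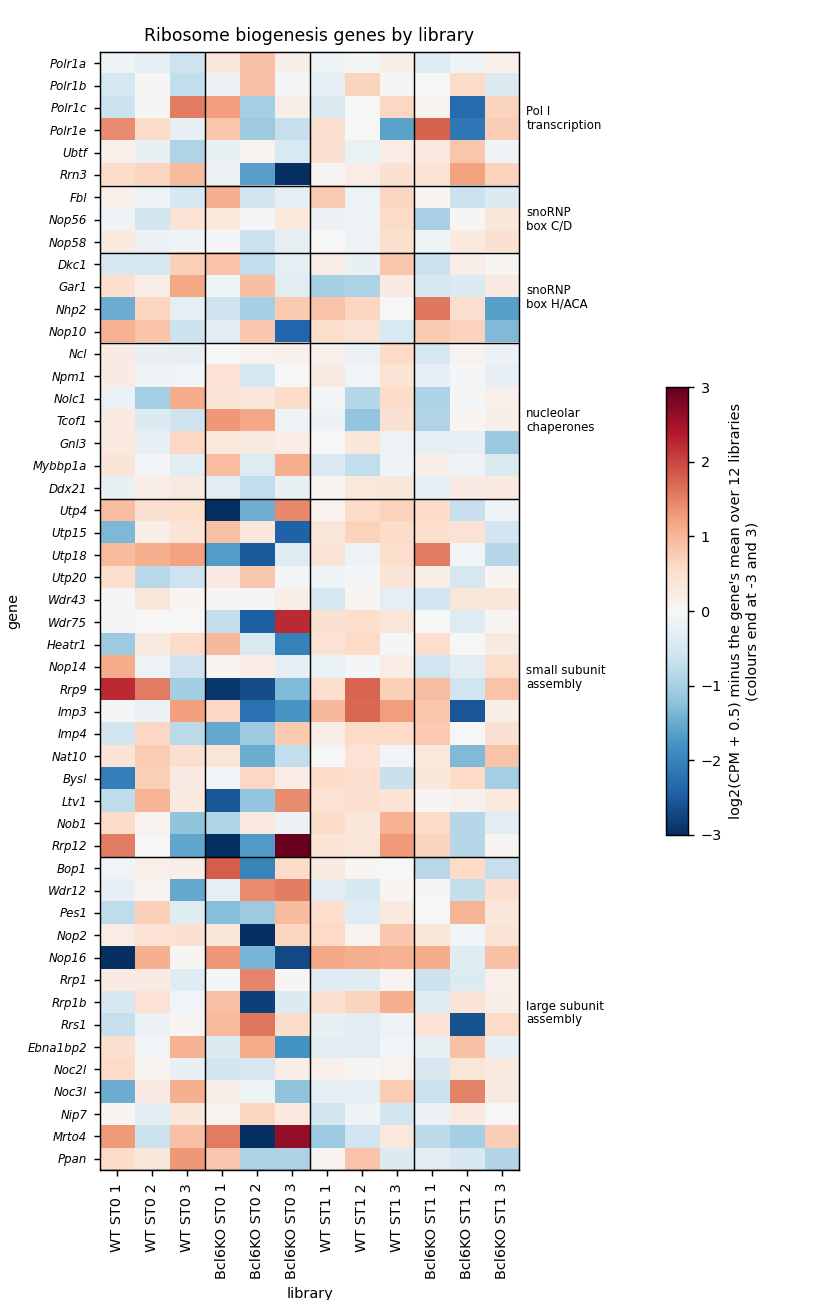
Level of each of the 50 ribosome biogenesis genes (vertical axis, by role group) in each of the 12 libraries (horizontal axis), as log2(CPM + 0.5) minus the gene's mean over the 12 libraries; colours end at -3 and 3. The Bcl6KO ST0 columns hold the deepest colours in both directions, and no column or role group has a single colour.

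As a sum, the 50 genes took 0.311% to 0.614% of a library's counts. Their share was 0.465, 0.507 and 0.490% in the WT ST0 libraries, 0.531, 0.488 and 0.614% in WT ST1, 0.479, 0.311 and 0.378% in Bcl6KO ST0 and 0.453, 0.464 and 0.483% in Bcl6KO ST1. The 2 lowest shares belong to Bcl6KO ST0 libraries 2 and 3, in which Sp100 took 23.9% and 17.9% of counts. On the CPM scale, which corrects library size for composition (TMM), the order was different: summed CPM was 4185 to 4812 in WT ST0, 4224 to 5757 in WT ST1, 4716 to 5291 in Bcl6KO ST0 and 3697 to 4651 in Bcl6KO ST1. With the counts of Sp100 and of genes for or resembling ribosomal RNA removed, the share was 0.513 ± 0.0123% in WT ST0, 0.568 ± 0.0668% in WT ST1, 0.482 ± 0.0647% in Bcl6KO ST0 and 0.491 ± 0.0290% in Bcl6KO ST1 (mean ± SD, n = 3 each). With those counts removed, the Bcl6KO ST0 libraries ranged from 0.420% to 0.549% and overlapped each of the other groups.

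**Figure D2:**
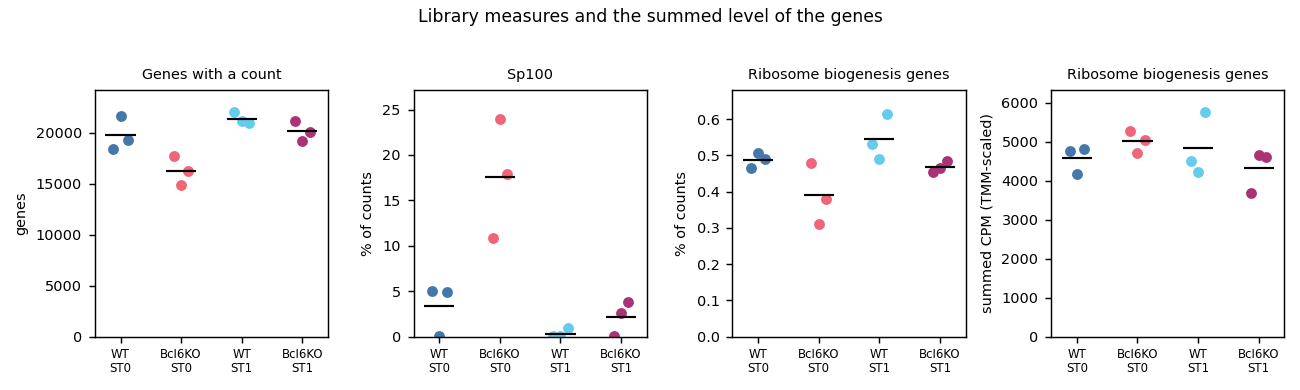
Genes with a count, percent of counts from Sp100, percent of counts from the 50 ribosome biogenesis genes and their summed TMM-scaled CPM (vertical axes), by group (horizontal axis); points are libraries and bars are means of 3. Bcl6KO ST0 has the fewest genes, the highest Sp100 share and the lowest mean raw share of the 50 genes, but not the lowest mean summed CPM.

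None of the 50 genes passed the test between the genotypes at stage 0, where edgeR's quasi-likelihood test with Benjamini-Hochberg adjustment called 0.0191% of all genes tested (3 of 15704). At an unadjusted p under 0.05 there were 6, of which Wdr12, Polr1a and Tcof1 were higher in Bcl6KO (3 of 50, against 5.93% of all genes) and Rrp9, Utp18 and Rrn3 lower (3 of 50, against 8.77%). Of the 8679 other genes within the 50 genes' level range, 683 were higher and 505 lower at that p. DESeq2 called Rrp9, Utp18 and Rrn3 (6% of the 50, with 6.05% of all genes called), and limma-voom called none of the 50 (0 of 15704 genes). The median log2 fold change of the 50 genes was -0.09, against -0.01 over all genes tested, with 23 positive and 27 negative. The libraries of the groups did not overlap for 2 genes that were higher in Bcl6KO, Polr1a and Rrs1 (4.67% of all genes tested), and for 4 that were lower, Rrn3, Utp18, Rrp9 and Nat10 (7.95%). These shares, 4% and 8% of the 50, are near the background.

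Among the genes of RNA polymerase I transcription, Rrn3 and Polr1a stood on opposite sides. Rrn3 encodes the initiation factor that brings RNA polymerase I to the ribosomal DNA promoter (chr16:13780708-13814839, plus strand, ENSMUSG00000022682). It stood at 48.3, 51.3 and 63.4 CPM in the WT ST0 libraries and at 29.2, 10.2 and 2.74 CPM in Bcl6KO ST0, the last from 14 counts. All 3 Bcl6KO ST0 libraries lay below all WT ST0 libraries, and below all 6 stage 1 libraries. The log2 fold change was -1.95 (SE 0.69, edgeR adjusted p = 0.231). It was -3.08 without Bcl6KO ST0 library 1 (adjusted p = 0.0581) and -0.84 with the Sp100 share as a covariate (adjusted p = 0.836). Sp100 took 10.8% to 23.9% of counts in Bcl6KO ST0 and at most 5.03% elsewhere. Here and below, a fit with that covariate therefore cannot cleanly separate the Sp100 share from the Bcl6KO ST0 group. Why a difference was smaller in such a fit was not tested. Polr1a, the largest subunit (chr6:71909053-71984935, plus strand, ENSMUSG00000049553), stood at 84.8, 75.2 and 59.5 CPM in WT ST0 and at 117, 170.3 and 105 CPM in Bcl6KO ST0. The Bcl6KO ST0 libraries were the 3 highest of all 12, with a log2 fold change of 0.84 (SE 0.34, edgeR adjusted p = 0.290), or 0.24 with the Sp100 share as a covariate. The other 4 genes of this group, Polr1b and Polr1c, which encode further polymerase subunits, Polr1e, which encodes an associated factor, and Ubtf, which encodes the upstream binding factor of ribosomal DNA, had overlapping groups and log2 fold changes from -0.82 (Polr1e) to 0.68 (Polr1b).

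Of the small subunit factors, 11 of 16 were lower and 5 higher in Bcl6KO ST0, with a median of -0.16 and none past the test. Utp18 belongs to the processome that cuts the small subunit's precursor RNA (chr11:93859243-93885766, minus strand, ENSMUSG00000054079). It stood at 27.9, 30.6 and 33.9 CPM in WT ST0 and at 4.17, 2.08 and 10.8 CPM in Bcl6KO ST0, without overlap (21, 11 and 55 counts in Bcl6KO). Its log2 fold change was -2.44 (SE 0.85, edgeR adjusted p = 0.227), or -0.97 with the Sp100 share as a covariate. Rrp9 encodes the U3 snoRNP protein (chr9:106475963-106485424, plus strand, ENSMUSG00000041506), the least abundant of the 50 genes per kilobase. Its WT ST0 libraries spread from 30.9 and 19.2 down to 2.74 CPM, while Bcl6KO ST0 had 0.397, 0.566 and 2.16 CPM, which is 2, 3 and 11 counts. The groups did not overlap, but the lowest WT library (14 counts) lay close above the highest Bcl6KO library. The log2 fold change was -4.05 (SE 1.16, edgeR adjusted p = 0.172), the lowest adjusted p of the 50 genes in this comparison. With the Sp100 share as a covariate it was -4.10 (adjusted p = 0.575). Of its 3 Bcl6KO values, 2 are at or under the floor of 3 counts that a count of 0 allows (0.566 to 0.612 CPM). Nat10, an RNA acetyltransferase, stood at 61.7, 79.3 and 65.4 CPM in WT ST0 and 60.2, 16.2 and 27.6 CPM in Bcl6KO ST0, so that its groups stayed apart by less than 2 CPM (log2 fold change -0.99, edgeR adjusted p = 0.475).

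Of the large subunit factors, 6 of 14 were higher and 8 lower, with a median of -0.11. Wdr12 encodes a member of the Pes1-Bop1-Wdr12 complex that acts on the large subunit's precursor RNA (chr1:60069785-60098645, minus strand, ENSMUSG00000026019). It stood at 46.7, 58.6 and 18.8 CPM in WT ST0 and at 46.5, 149 and 162 CPM in Bcl6KO ST0. Bcl6KO ST0 libraries 2 and 3 were the 2 highest of all 12, and library 1 lay within the WT range. The log2 fold change was 1.53 (SE 0.57, edgeR adjusted p = 0.254), or 0.29 with the Sp100 share as a covariate. Its partners Pes1 and Bop1 gave -0.10 and 0.72 with overlapping groups. Rrs1, a factor of large subunit assembly, stood at 21.6, 31.0 and 37.4 CPM in WT ST0 and 68.5, 108 and 51.5 CPM in Bcl6KO ST0, without overlap (log2 fold change 1.34, SE 0.69, edgeR adjusted p = 0.386).

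Among the nucleolar chaperones and organisers, 5 of 7 were higher in Bcl6KO ST0, with a median of 0.14. Tcof1 encodes treacle, which links RNA polymerase I transcription with processing. It stood at 129, 78.9 and 67.8 CPM in WT ST0 and 259.8, 236 and 94.6 CPM in Bcl6KO ST0, where the lowest Bcl6KO library lay within the WT range (log2 fold change 1.10, SE 0.50, edgeR adjusted p = 0.337, or 0.87 with the Sp100 share as a covariate). The abundant Npm1 and Ncl had overlapping genotypes. Npm1 stood at 493, 391 and 395 CPM in WT ST0 and 566, 291 and 416 CPM in Bcl6KO ST0, and Ncl at 900.5, 658 and 649 CPM and 765, 827 and 841 CPM. Their 95% intervals, from -0.57 to 0.56 for Npm1 and from -0.39 to 0.67 for Ncl on the log2 scale, excluded a 2-fold difference. The snoRNP core proteins had no gene at an unadjusted p under 0.05: the median was 0.24 over Fbl, the methyltransferase fibrillarin, Nop56 and Nop58, and -0.18 over Dkc1, the pseudouridine synthase dyskerin, Gar1, Nhp2 and Nop10.

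**Figure D3:**
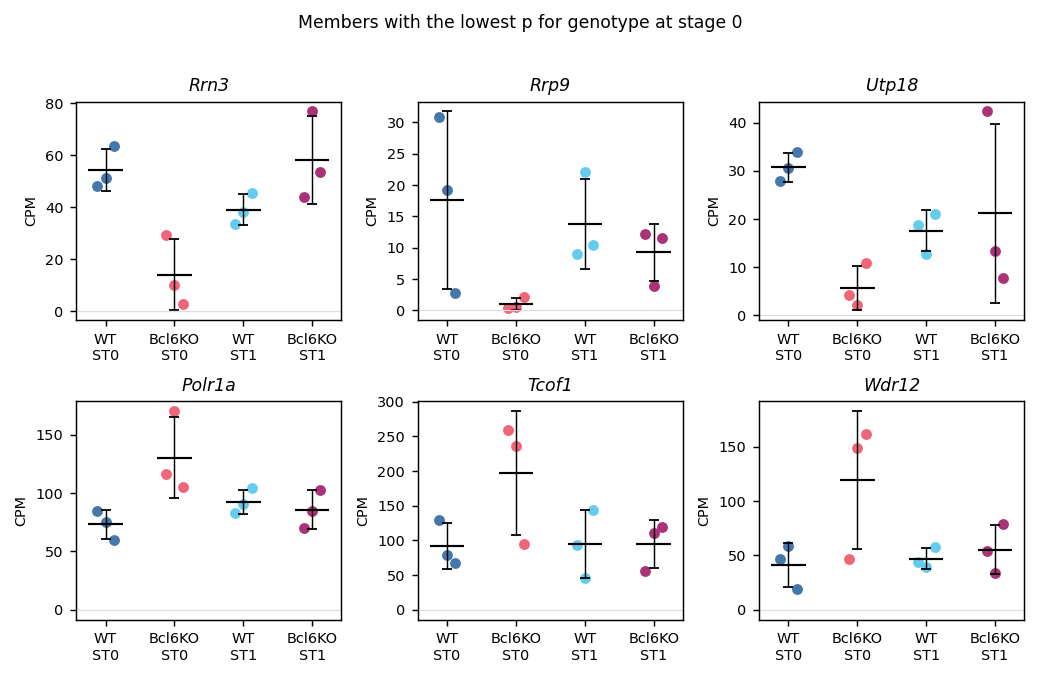
CPM (TMM-scaled, vertical axes from 0) of the 6 genes with the lowest p between the genotypes at stage 0, by group (horizontal axis); points are libraries, wide bars are means and whiskers are 1 SD of 3 libraries. The Bcl6KO ST0 points of Rrn3, Rrp9 and Utp18 lie below the WT ST0 points and those of Polr1a above, while Tcof1 and Wdr12 overlap.

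Between the genotypes at stage 1, none of the 50 genes passed edgeR's test with Benjamini-Hochberg adjustment, in which 0% of all genes were called, and none had an unadjusted p under 0.05 (1.45% of all genes higher and 1.13% lower). DESeq2 called 0 of the 50 (0.127% of all genes) and limma-voom 0 (5 of 15704 genes). The median log2 fold change was -0.10, against 0.02 over all genes, with 20 positive and 30 negative. No gene was higher without overlap (5.87% of all genes), and 5 were lower without overlap (7.44% of all genes): Gnl3, Wdr75, Imp3, Ltv1 and Rrp1b, which is 10% of the 50. Wdr75, a processome protein, had 44.6, 46.6 and 42.0 CPM in WT ST1 and 32.2, 24.7 and 33.8 CPM in Bcl6KO ST1. Rrp1b, a nucleolar protein of the large subunit pathway, stood at 58.5, 65.8 and 88.0 CPM against 31.8, 53.4 and 46.3 CPM. Imp3, a protein of the U3 particle, stood at 14.5, 24.8 and 18.0 CPM against 13.2, 0.791 and 8.14 CPM. All 3 had an edgeR adjusted p of 1. By role, 13 of 16 small subunit factors were lower in Bcl6KO ST1, with a median of -0.22, and 8 of 14 large subunit factors were higher, with a median of 0.11.

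The genes with the lowest p at stage 1 included the abundant ones. Fbl, the methyltransferase of box C/D snoRNPs, stood at 99.3, 51.7 and 91.0 CPM in WT ST1 and 59.9, 37.0 and 43.3 CPM in Bcl6KO ST1 (log2 fold change -0.79, SE 0.50). Npm1 stood at 502, 396 and 557 against 352, 404 and 351 CPM (-0.39, SE 0.26). Ncl stood at 837, 665 and 1144 against 550.0, 828 and 676 CPM (-0.37, SE 0.25), a difference that was -0.14 without WT ST1 library 3. In each of the 3 genes the libraries of the genotypes overlapped. On the higher side Nip7, a factor of large subunit assembly, stood at 78.1, 104 and 77.4 CPM in WT ST1 and 101, 140.2 and 116 CPM in Bcl6KO ST1, with a log2 fold change of 0.46 (SE 0.32). Wdr43, a processome protein, gave 0.33 and Polr1e 0.98, the latter only 0.08 without Bcl6KO ST1 library 1. The edgeR adjusted p of each of these 6 genes was 1.

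From stage 0 to stage 1 in WT, no ribosome biogenesis gene passed edgeR's test with Benjamini-Hochberg adjustment, which called 0.433% of all genes. Only Gar1 had an unadjusted p under 0.05 (1 of 50 lower and 0 higher, against 4.25% and 4.15% of all genes). DESeq2 called 0 of the 50 (2.39% of all genes) and limma-voom 0 (301 of 15704 genes). The median log2 fold change was 0.10, against -0.00 over all genes, with 29 positive and 21 negative. Gar1 stood at 116, 94.2 and 183 CPM in WT ST0 and 41.0, 42.2 and 97.4 CPM in WT ST1. The highest stage 1 library lay just above the lowest stage 0 library (log2 fold change -1.12, SE 0.49, edgeR adjusted p = 0.545). The other 3 core proteins of box H/ACA snoRNPs, with which Gar1 forms 1 particle, gave 0.30 for Dkc1, 0.69 for Nhp2 and -0.37 for Nop10.

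Groups did not overlap between the WT stages for 4 of the 50 genes. Wdr75 and Rrp1b were higher at stage 1 (4% of the 50, with 12.5% of all genes), and Rrn3 and Utp18 were lower (4%, with 9.04% of all genes). Wdr75 stood at 31.1, 31.9 and 32.1 CPM at stage 0 and 44.6, 46.6 and 42.0 CPM at stage 1, with a coefficient of variation of 1.80% and 5.11%. Rrn3 stood at 48.3, 51.3 and 63.4 CPM and then 33.5, 38.1 and 45.3 CPM, with a log2 fold change of -0.48. Utp18 stood at 27.9, 30.6 and 33.9 CPM and then 18.8, 12.8 and 21.0 CPM, with -0.81. Fbl and Ubtf gave 0.63 and 0.45, Rrp1b 0.78, Nip7 -0.45 and Ebna1bp2, a large subunit factor, -0.81. All of these had an edgeR adjusted p of at least 0.802.

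From stage 0 to stage 1 in Bcl6KO, again 0 of the 50 genes passed edgeR's test with Benjamini-Hochberg adjustment, which called 0.675% of all genes. At an unadjusted p under 0.05 there were 4: Rrn3, Rrp9 and Utp18 higher at stage 1 (3 of 50, against 9.98% of all genes) and Rrp1 lower (1 of 50, against 6.43%). Of the 8679 other genes within the 50 genes' level range, 592 were higher and 721 lower at that p. DESeq2 called Rrn3 and Rrp9 (4% of the 50, with 8.34% of all genes called) and limma-voom called none of the 50 (13 of 15704 genes). The median log2 fold change was -0.08, against 0.01 over all genes, with 24 positive and 26 negative. This comparison and the genotype comparison at stage 0 share the 3 Bcl6KO ST0 libraries. Groups did not overlap for Rrn3 and Rrp9, higher at stage 1 (4% of the 50, with 11.6% of all genes), and for Polr1a, Nolc1 and Gnl3, lower at stage 1 (6%, with 5.81% of all genes).

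Rrn3 stood at 43.9, 76.7 and 53.4 CPM in the Bcl6KO ST1 libraries, where the stage 0 libraries had 29.2, 10.2 and 2.74 CPM. Its log2 fold change was 2.04 (SE 0.69, edgeR adjusted p = 0.165). It passed without Bcl6KO ST0 library 1 (3.18, edgeR adjusted p = 0.0401), and with the Sp100 share as a covariate it was 0.82 (adjusted p = 0.848). Rrp9 stood at 12.3, 3.96 and 11.5 CPM at stage 1 and 0.397, 0.566 and 2.16 CPM at stage 0 (log2 fold change 3.12, SE 1.11, edgeR adjusted p = 0.187, or 3.18 with the Sp100 share as a covariate). Utp18 stood at 42.3, 13.4 and 7.75 CPM, of which the lowest lay within the stage 0 range (log2 fold change 1.90, edgeR adjusted p = 0.274; 0.92 without Bcl6KO ST1 library 1, and 0.18 with the Sp100 share as a covariate). Rrp1, a factor of large subunit assembly, stood at 135, 386 and 143 CPM at stage 0 and 89.1, 105 and 155 CPM at stage 1. Its log2 fold change of -0.93 (SE 0.42, edgeR adjusted p = 0.298) rested on Bcl6KO ST0 library 2: it was -0.25 without it, and 0.67 with the Sp100 share as a covariate. Gnl3, the GTP-binding protein nucleostemin, stood at 53.8, 51.7 and 49.8 CPM and then 34.8, 36.2 and 19.5 CPM, and Nolc1, a chaperone of snoRNPs, at 113, 108 and 127 CPM and then 44.7, 83.3 and 95.9 CPM. Of the 7 nucleolar chaperones and organisers, 6 were lower at stage 1, with a median of -0.64. The exception was Ddx21 (0.53).

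**Figure D4:**
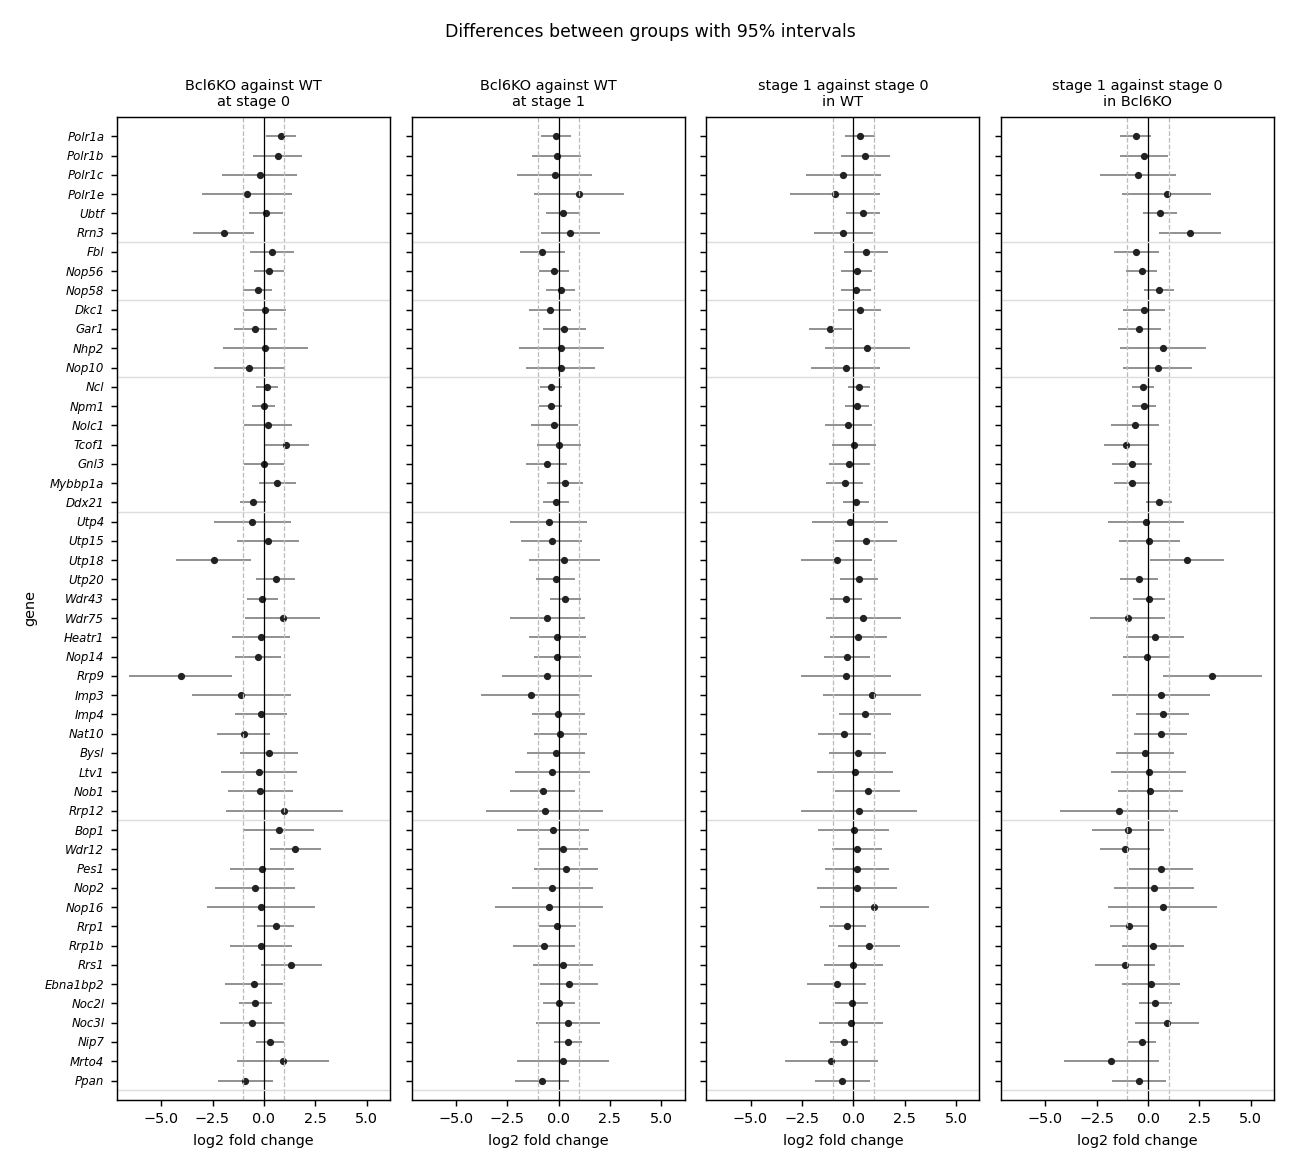
Log2 fold change (horizontal axes) of each of the 50 genes (vertical axis) in the 4 comparisons from edgeR's quasi-likelihood fit; points are estimates, lines are 95% intervals, and dashed lines mark a 2-fold difference. Most intervals cross 0, and those of Rrn3, Utp18 and Rrp9 lie to the left of 0 at stage 0 and to the right for the stages in Bcl6KO.

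The interaction of genotype and stage, the change with stage in Bcl6KO minus that in WT, also called 0 of the 50 genes and 0% of all genes. Rrn3, Utp18 and Rrp9 had an unadjusted p under 0.05, with differences of 2.52 (SE 0.96), 2.71 (SE 1.16) and 3.48 (SE 1.48) on the log2 scale. Their edgeR adjusted p was 0.571, 0.601 and 0.601. That is 3 of 50 positive, against 5.25% of all genes, and 0 negative, against 2.52%. DESeq2 called 0 of the 50 (0.828% of all genes), and limma-voom 0 (0 of 15704 genes). On the negative side, Wdr12 (-1.29), Fbl (-1.20) and Polr1a (-0.94) had the lowest p, with an edgeR adjusted p of at least 0.675. With the Sp100 share as a covariate the interaction was 1.60 for Rrn3, 1.32 for Utp18, 3.52 for Rrp9, -0.20 for Wdr12, -2.37 for Fbl and -0.43 for Polr1a. Without Bcl6KO ST0 library 1 that of Fbl was -0.51.

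A p above the threshold does not show that the groups were alike, so the size of each difference was set against its 95% interval. The estimate was under 2-fold for 43 of the 50 genes between genotypes at stage 0, 49 at stage 1, 47 between the WT stages and 42 between the Bcl6KO stages. Over all genes tested those shares were 57.1%, 77.3%, 66.6% and 56.3%, and for genes of like level they were not counted. Quartiles of the log2 fold change were -0.43 and 0.38, -0.39 and 0.21, -0.36 and 0.30, and -0.54 and 0.53 for the 50 genes. For the 8679 other genes within their level range they were -0.52 and 0.71, -0.34 and 0.40, -0.52 and 0.51, and -0.71 and 0.58. The 95% interval lay within 2-fold for only 7, 8, 6 and 4 of the 50 genes in the same order, and within 4-fold for 28, 32, 32 and 31. The median standard error of a log2 fold change was 0.63 for the 50 genes in each of these comparisons, against 0.97 to 0.98 over all genes. Differences of under 2-fold were therefore not resolved for most of the 50 genes at this depth and number of libraries.

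Across the 12 libraries the 50 genes did not vary as a block. The median Pearson correlation of log2 CPM over 1225 pairs of genes was 0.002, with quartiles of -0.25 and 0.28. It was 0.03 for pairs of the same role and -0.002 for pairs of different roles. Among proteins of 1 complex the median was 0.07 for Pes1, Bop1 and Wdr12 and -0.10 for the 4 box H/ACA proteins, 0.23 for the 3 box C/D proteins, and the single pair Imp3 and Imp4 had 0.13. The highest value was 0.89 for Heatr1 and Utp15, both of the small subunit processome, and the lowest was -0.91 for Utp18 and Polr1a. These values are a description over 12 points that share groups and library composition.

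The rest of the pathway was read from separate lists of 112 other matched genes: 14 of RNA polymerase I and ribosomal DNA transcription, 33 of the small subunit, 45 of the large subunit, 8 of snoRNP assembly and 12 of the RNA exosome. Of these 110 were tested, and none passed edgeR's test in any of the 5 comparisons. Their median log2 fold changes were 0.00 between genotypes at stage 0, -0.07 at stage 1, -0.12 between the WT stages and -0.25 between the Bcl6KO stages. At an unadjusted p under 0.05 there were 13, 1, 6 and 19 of them, against 14.7%, 2.57%, 8.40% and 16.4% of all genes. DESeq2 called 4, 0, 0 and 5, against 6.05%, 0.127%, 2.39% and 8.34% of all genes. In each, limma-voom called 0 of them, against 0, 5, 301 and 13 of 15704 genes. Between the Bcl6KO stages 17 of the 19 were lower at stage 1 (17 of 110, against 6.43% of all genes) and 2 higher (2 of 110, against 9.98%). Ddx56, a helicase of the large subunit pathway, had the lowest p at stage 0, with 14.4, 22.3 and 21.3 CPM in WT ST0 and 1.39, 0 and 0 CPM in Bcl6KO ST0 (edgeR adjusted p = 0.145). The 8 genes of snoRNP assembly had a median of 0.65 between genotypes at stage 0 and -0.68 between the Bcl6KO stages, with summed levels of 271 to 376 CPM in Bcl6KO ST0 against 143 to 231 CPM in the other 9 libraries. Between genotypes at stage 0, 2 of the 8 had an unadjusted p under 0.05, both higher (5.93% of all genes). Without overlap 1 was higher (4.67% of all genes) and 1 lower (7.95%). Each of the other lists in this paragraph also had its highest mean sum in Bcl6KO ST0.

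Genes for the cytosolic ribosomal proteins, the products that the 50 genes' machinery assembles, were lower in Bcl6KO ST1 than in WT ST1 in 77 of 81 cases, with a median log2 fold change of -0.46. They were higher at stage 1 than at stage 0 in WT in 78 of 81, with a median of 0.46. These 2 comparisons share the WT ST1 libraries. None of the 81 passed edgeR's test in either comparison (6 and 8 at an unadjusted p under 0.05, against 2.57% and 8.40% of all genes), nor DESeq2 or limma-voom. Of all genes, DESeq2 called 0.127% and 2.39%, and limma-voom called 5 and 301 of 15704. Between genotypes at stage 0 their median was -0.09, and between the Bcl6KO stages 0.06. Their share of counts was 1.45% to 2.51% in WT ST0, 2.32% to 3.26% in WT ST1, 1.15% to 1.76% in Bcl6KO ST0 and 1.66% to 2.63% in Bcl6KO ST1.

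Among 16 genes of the cell cycle, 15 were higher in Bcl6KO than in WT at each stage, with medians of 1.17 at stage 0 and 0.53 at stage 1, and 15 were higher at stage 1 than at stage 0 in WT (0.67). None passed edgeR's test. At an unadjusted p under 0.05 there were 9, 2 and 3 of the 16, against 14.7%, 2.57% and 8.40% of all genes. DESeq2 called 6, 0 and 1, against 6.05%, 0.127% and 2.39% of all genes, and limma-voom none, against 0, 5 and 301 of 15704 genes. Mki67, which marks dividing cells, stood at 439, 345 and 336 CPM in WT ST0, 1159.9, 439.9 and 1295 in WT ST1, 1484, 2239 and 1785 in Bcl6KO ST0 and 1287, 3161 and 2342 in Bcl6KO ST1. All Bcl6KO libraries lay above all WT libraries at stage 0, and the genotypes overlapped at stage 1. Over the same groups the ribosome biogenesis genes had medians of -0.09, -0.10 and 0.10. Myc stood at 222, 104 and 199 CPM in WT ST0, 146, 204 and 314 in WT ST1, 143, 329.6 and 269 in Bcl6KO ST0 and 94.1, 188 and 224 in Bcl6KO ST1, with all 4 groups overlapping. Of the 10 genes for MYC and its partners 9 were tested and none passed edgeR's test in any comparison. At an unadjusted p under 0.05 there was 1 in each comparison but that of the WT stages, which had 0. Over all genes those shares were 14.7% and 2.57% between genotypes at stages 0 and 1. They were 8.40% between the WT stages, 16.4% between the Bcl6KO stages and 7.78% for the interaction. DESeq2 called 1 of the 9 between genotypes at stage 0 (6.05% of all genes) and 1 between the Bcl6KO stages (8.34% of all genes). By limma-voom none was called, against 0, 5, 301, 13 and 0 of 15704 genes in the order of these comparisons.

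**Figure D5:**
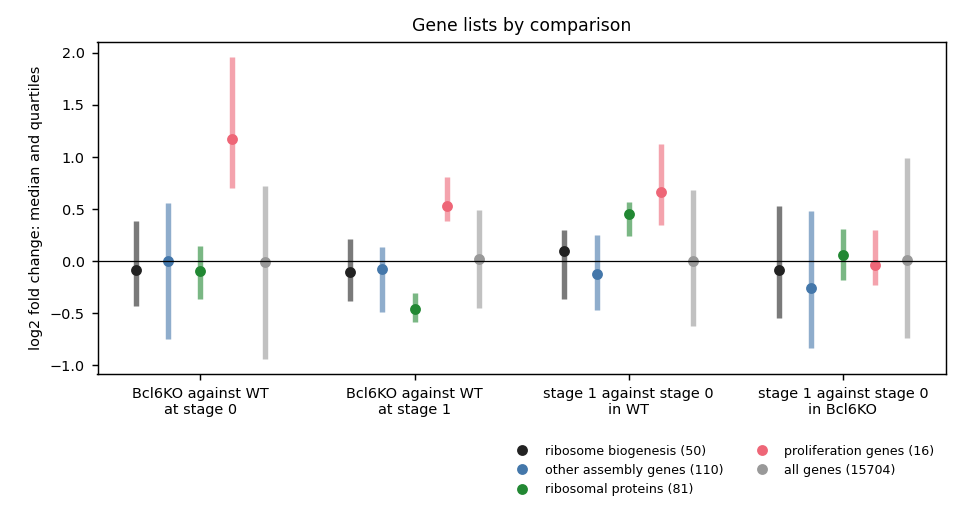
Log2 fold change (vertical axis) in the 4 comparisons (horizontal axis) for 5 gene lists; points are medians and bars run between the quartiles. The medians of the 50 ribosome biogenesis genes lie between -0.10 and 0.10 and those of the 110 other assembly genes between -0.25 and 0.00, while ribosomal protein genes lie below 0 for the genotypes at stage 1 and above 0 for the WT stages, and proliferation genes lie above 0 in 3 of 4.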

How the data were processed

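RNA of 12 sorted cell libraries, 3 in each of 4 groups named by sample title and genotype and stage labels, was analysed. The deposited values are raw counts per Ensembl gene ID, 1 file per library. The submitters' processing notes name the build mm10 and the tools DESeq, Bowtie2, TopHat2 and bcl2fastq. The sources used here give no version, counting program, annotation or strand setting. Per the labels' protocols, a QIAGEN kit was used for extraction and the NuGEN Ovation Ultralow system for libraries; molecular identifiers are not named, so a floor of 3 counts (0.566 to 0.612 CPM) covers counting error only.

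Symbols, loci and exonic lengths came from GENCODE release M21 on mm10, which named 48312 of 48672 IDs. IDs without a symbol stayed in the tests. Libraries were scaled by TMM. Levels are CPM on the scaled library size, and logarithms used a pseudocount of 0.5. Genes passing filterByExpr were fitted in edgeR 4.0.16 (R 4.3.3) by its robust quasi-likelihood method, all 12 libraries in 1 model (8 residual degrees of freedom, common biological coefficient of variation 0.835). Contrasts were tested two-sided with Benjamini-Hochberg adjustment over all 15704 genes at 0.05. Standard errors are the log2 fold change over the square root of F. Alternatives used DESeq2 1.42.0, limma 3.58.1 (voom with sample quality weights), other scalings and filters, a replicate block, the Sp100 share as a covariate, and each library left out. The procedure was also run on simulated counts with known changes, drawn from the same mean profile and dispersions for all groups. These counts lacked the Sp100 share and the wider spread of Bcl6KO ST0, so no conclusion is drawn from them here. Chi-square per gene between libraries of a group was 27.6 to 170, so no library was counted as a duplicate.

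The genes, the role groups and the other lists were chosen with earlier results of these data known. Named genes are, in each comparison, the 3 with the lowest p in each direction and, in each role group, the one with the highest level per kilobase, besides Myc, Bcl6, Cd24a and Sp100. Genes named for groups that did not overlap, for wide or narrow spread or for their promoters were chosen after their values were seen. Riok2, on the list of other small subunit genes, was not matched and not analysed here. Promoter sequences came from the RefSeq table of GRCm38.p6.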

Additional observations from a re-analysis of the deposited data

Results flagged for a closer look

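Rrn3 was singled out because its 2 stage effects pointed in opposite directions: every WT ST1 library lay below every WT ST0 library, and every Bcl6KO ST1 library lay above every Bcl6KO ST0 library. The levels were 48.3, 51.3 and 63.4 CPM in WT ST0, 33.5, 38.1 and 45.3 in WT ST1, 29.2, 10.2 and 2.74 in Bcl6KO ST0 and 43.9, 76.7 and 53.4 in Bcl6KO ST1. The change with stage in Bcl6KO minus that in WT was 2.52 on the log2 scale, with an unadjusted p of 0.0202 and an edgeR adjusted p of 0.571, which did not pass. Over 19 alternatives it stayed positive, from 1.60 to 3.64, with adjusted p between 0.161 and 1.00. Rrn3 was picked by these same libraries, so a positive interaction was built into that choice and adds no support. The share of all genes with such opposite stage effects was not counted. The Bcl6KO ST0 libraries on which the interaction rests are those with the highest Sp100 share and the fewest genes detected. The fit with the Sp100 share as a covariate gave 1.60, but it cannot cleanly separate that share from this group. The part of either in the Rrn3 values was not tested.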

How the results depend on the processing

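Under the 20 alternatives of each comparison (19 for the interaction), the number of the 50 genes called stayed at 0, apart from DESeq2, with 3 for the genotypes at stage 0 and 2 for the stages in Bcl6KO, and the stages in Bcl6KO with a library left out (0 to 1, the 1 being Rrn3 without Bcl6KO ST0 library 1). The median log2 fold change of the 50 genes was 0.13 between genotypes at stage 0 with the Sp100 share as a covariate, and between the Bcl6KO stages 0.035 by voom and 0.039 with that covariate. Leaving out 1 library at a time it ran from -0.18 to 0.12 (highest without Bcl6KO ST0 library 2) and -0.22 (without Bcl6KO ST1 library 3) to -0.028 for the genotypes at stages 0 and 1, from -0.046 (without WT ST1 library 3) to 0.11 and from -0.16 to 0.073 for the stages in WT and Bcl6KO, and from -0.33 to 0.059 for the interaction. The last 2 upper values are those without Bcl6KO ST0 library 1. The Sp100 covariate turned Rrp1 (0.67) and Wdr12 (0.15) positive between the Bcl6KO stages. The Sp100 share was highest in the Bcl6KO ST0 libraries, so these fits cannot cleanly separate it from that group. The cause was not tested. These fits pool the spread over all groups.

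The replicate block, added although same-numbered libraries were not paired by their deviations (correlations from -0.08 to 0.12, 2 of 18 above 0.1), called 0 of the 50 genes in each comparison and 1, 0, 53, 39 and 0 of all genes, against 3, 0, 68, 106 and 0, in the order genotypes at stage 0 and 1, stages in WT and Bcl6KO, interaction. All 6 libraries correlated best with their own number between the Bcl6KO stages, against 4 of 6 between the WT stages, 1 of 6 between genotypes at stage 0 and 2 of 6 at stage 1. It was 6 of 6 also for WT ST1 with Bcl6KO ST0, 2 of 6 for WT ST0 with Bcl6KO ST1, and 21 of 36 in all, which is a hint from the data and not from the design. In that order no filter on low counts gave 103, 11, 142, 309 and 7 genes, DESeq2 950, 20, 376, 1309 and 130, voom 0, 5, 301, 13 and 0, the Sp100 covariate 0, 0, 51, 0 and 0, and only the groups compared 0, 0, 96 and 3. With a library left out it gave 0 to 133, 0 to 1, 20 to 139, 7 to 277 and 0 to 0, where 133 and 277 are without Bcl6KO ST0 library 1, 139 is without WT ST0 library 2, 20 without WT ST1 library 1 and 7 without Bcl6KO ST1 library 3. The low genes rested on few counts: Rrp9 had 2, 3 and 11 counts in Bcl6KO ST0 and 156, 98 and 14 in WT ST0. The Bcl6KO ST0 libraries had the highest total counts, 5558250 to 8038717, against 4213431 to 5190157 in WT ST0. The cause of the low Rrp9 counts was not tested.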
